A study of Mus musculus with 115 samples.

Results

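The 9 genes described here mark B cells: Ms4a1, Cd79a, Cd79b, Cr2, Fcer2a, Pax5, Blk, Cd22 and Cxcr5. Their RNA was measured in the mammary fat pad of 115 females, 8 weeks old and untreated, on 1 array each. Every mouse is offspring of an [FVB/N x Spret/Ei] hybrid crossed back to FVB/N, so at an autosomal locus it has either only FVB/N alleles or 1 Spret/Ei allele beside an FVB/N one; FVB/N is a laboratory strain and Spret/Ei is derived from Mus spretus. The labels give each mouse a lymph cluster and an array plate: 44 mice were in lymph cluster 1, 61 in cluster 2 and 10 in cluster 3, and 93 arrays were on plate 1 and 22 on plate 2. How the clusters were made is not said, so a difference between them in lymphoid genes may follow from how the mice were sorted. Members were the probe sets with a single gene symbol, the one with the highest mean where a gene had several. Each of the 9 genes had exactly 1 such probe set, and together they are 9 of the 18772 genes named on the array. All values are log2 values, so a difference of 1 is a doubling.

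B cells sense antigen through a surface antibody whose signal passes through the chains encoded by Cd79a and Cd79b. Around it sit Ms4a1, which encodes the surface protein CD20, the Src-family kinase Blk, and Cd22, a receptor that binds sialic acid and dampens the signal. Cr2 encodes the complement receptors CD21 and CD35, which B cells carry and which follicular dendritic cells carry too. Fcer2a encodes CD23, the low-affinity receptor for IgE, Cxcr5 the receptor for the chemokine CXCL13 that guides B cells into follicles, and Pax5 the transcription factor that keeps B cells in their lineage. Mammary fat pads can hold a lymph node beside scattered lymphocytes, and a bulk array cannot tell fewer B cells from less B cell RNA per cell.

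The results turn on the contrast between Cr2 and the other members, so the promoter of Cr2 is shown beside those of Cd22 and Cd79a. The sequences are RefSeq's on GRCm38.p6, from 250 bases before to 50 bases after the start of the gene, and capitals mark motif matches on either strand. The Cr2 window is chr1:195176670-195176969 on the minus strand, that of Cd22 is chr7:30878979-30879278 on the minus strand and that of Cd79a is chr7:24897247-24897546 on the plus strand.
Cr2: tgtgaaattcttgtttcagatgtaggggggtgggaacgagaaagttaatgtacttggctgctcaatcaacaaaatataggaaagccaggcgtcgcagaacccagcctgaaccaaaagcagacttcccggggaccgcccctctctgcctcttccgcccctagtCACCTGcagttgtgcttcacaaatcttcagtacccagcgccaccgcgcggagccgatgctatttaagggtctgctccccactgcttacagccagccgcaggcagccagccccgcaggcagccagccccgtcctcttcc
Cd22: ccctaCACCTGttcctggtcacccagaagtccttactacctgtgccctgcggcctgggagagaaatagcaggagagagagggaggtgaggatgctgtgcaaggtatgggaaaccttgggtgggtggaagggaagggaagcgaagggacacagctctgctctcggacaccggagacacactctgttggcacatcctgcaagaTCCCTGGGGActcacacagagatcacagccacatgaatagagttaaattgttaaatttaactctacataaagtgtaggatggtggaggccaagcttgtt
Cd79a: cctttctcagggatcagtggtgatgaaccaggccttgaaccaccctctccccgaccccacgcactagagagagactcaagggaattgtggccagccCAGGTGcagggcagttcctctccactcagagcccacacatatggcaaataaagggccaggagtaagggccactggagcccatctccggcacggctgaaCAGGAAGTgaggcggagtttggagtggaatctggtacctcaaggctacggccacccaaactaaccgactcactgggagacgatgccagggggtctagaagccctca
The motifs searched were the octamer ATGCAAAT, the EBF1 motif (TCCC, any 2 bases, then GGGA), the PU.1 motif GAGGAAG, the ETS motif CAGGAAGT and the E-box CAGGTG. Positions are those of the first base of a match relative to the start of the gene. The Cr2 window held an E-box match at -88, printed as CACCTG because it lies on the opposite strand. The Cd22 window held an EBF1 match at -49 and an E-box match at -245, and the Cd79a window an ETS match at -56 and an E-box match at -154. Of 32851 promoter windows of the same length, 20.21% held the E-box, 0.9% the EBF1 motif, 3.33% the ETS motif, 13.63% the PU.1 motif and 1.74% the octamer. Among the 5 members in the promoter table, Fcer2a had 3 windows, of which the one at chr8:3690812-3691111 held 2 E-box matches, and the Pax5 window held no match. These matches describe letters, not binding.

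Adipoq, which encodes the fat cell hormone adiponectin, read 12.01 ± 0.29 (SD, n = 115), and Krt18, a keratin of luminal epithelium, read 9.46 ± 0.93 (SD, n = 115), so genes of fat and of epithelium were both read. Array medians lay between 6.16 and 6.45. No array was a copy of another, with correlations between pairs of arrays from 0.928 to 0.992, and the number of arrays limits the precision. The labels name separate mice, so the spread is one between animals.

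The B cell genes were among the most variable of the array. The SD over all mice was larger for Cr2 than for 99.6% of the probe sets, for Ms4a1 than for 98.6%, and even for Blk, the least variable member, than for 91.9%. Ms4a1 ran from 5.98 through a median of 7.68 to 11.01 over the 115 mice, a 32.7-fold range. Among the receptor's signal chains Cd79a ran from 5.84 through 7.58 to 9.93 and Cd79b from 7.45 through 9.12 to 11.33. Blk spanned 5.06 to 7.68 around a median of 6.36, and Cd22 5.47 to 9.01 around a median of 7.43. In other words, both the activating kinase and the dampening receptor varied, Blk over a narrower range. Fcer2a ran from 5.24 through 7.21 to 9.91, Cr2 from 5.10 through 8.25 to 9.96, Pax5 from 5.57 through 7.28 to 9.30 and Cxcr5 from 4.63 through 6.29 to 7.50. The same mouse was lowest for all 9 members, a mouse of cluster 2 on plate 1 with a member mean of 5.59. A mouse of cluster 1 on plate 1, with a member mean of 9.44, was highest for 6 of the 9.

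**Figure D1:**
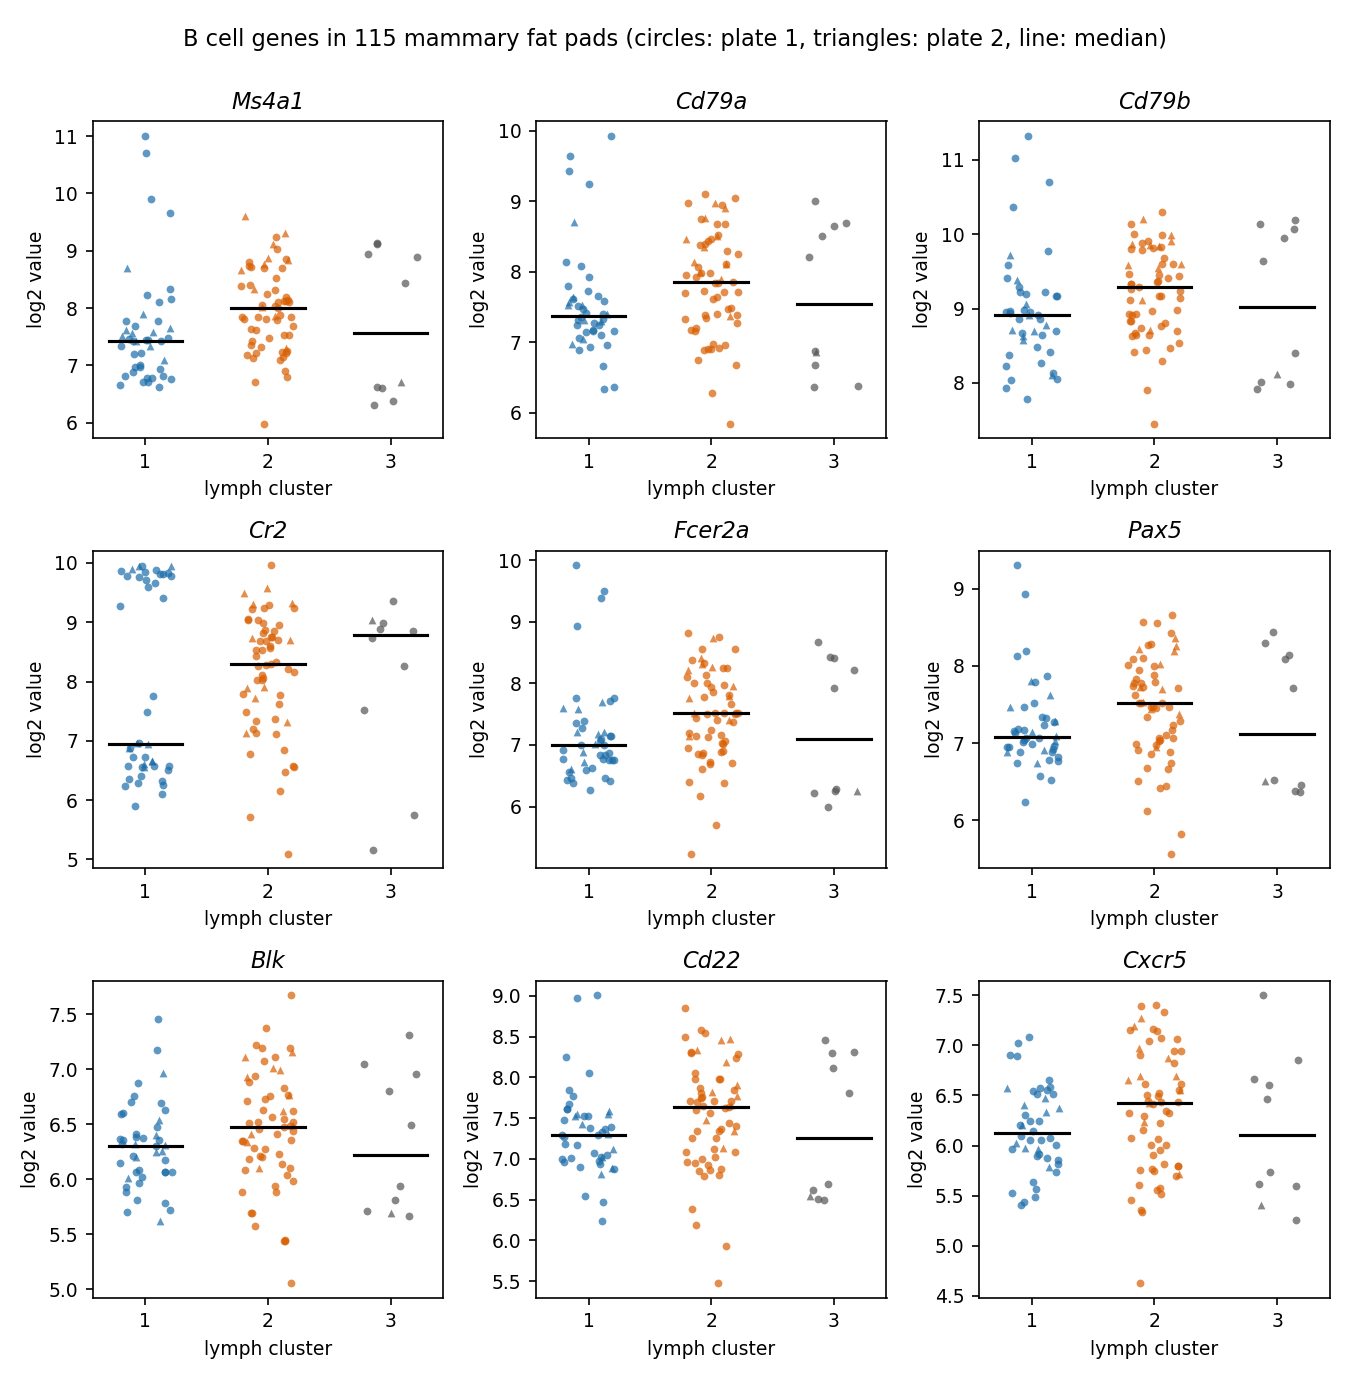
Log2 values of the 9 B cell genes (vertical axes) in each mouse of lymph clusters 1, 2 and 3 (44, 61 and 10 mice), with a line at each median. Cr2 in cluster 1 forms 2 bands with no mouse between 7.76 and 9.28, and 4 mice of cluster 1 stand above the others for Ms4a1 and Fcer2a, while cluster 2 is spread without such gaps and cluster 3 forms 2 bands of 5 mice for every member except Cr2.

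The distributions of the members differed in shape between the clusters. Their centres lay close, but so did those of nearly all probe sets. Between clusters 2 and 1 only 4 of 28204 had an unadjusted limma p under 0.05. Close centres are therefore not a result about these genes, and their cause was not tested. In cluster 1 the mean of the 8 members other than Cr2 lay between 6.67 and 7.64 in 40 of 44 mice, and between 8.51 and 9.38 in the remaining 4, a gap of 0.88. In cluster 2 the same mean ran from 5.65 to 8.56, and its widest gap with at least 3 mice on each side was 0.27. For Ms4a1 the 4 high mice of cluster 1 read 9.66 to 11.01, against 6.62 to 8.70 (median 7.43) in the other 40. Fcer2a read 8.93 to 9.91 in the 4 mice, against 6.27 to 7.76 (median 6.91) in the others. Cr2 and Blk overlapped between the 4 mice and the other 40, and the other members did not. The share of all probe sets that separate these mice was not computed. The separation of the members describes how the 4 were found and is not a test. These 4 mice, all on plate 1, were also high for genes of the B cell niche, with a list mean of 8.42 to 8.95 against 7.11 to 7.87 in the other 40. Their T cell list mean was 7.51 to 9.15 and overlapped the 6.73 to 8.05 of the others, and their macrophage list mean was 8.37 to 8.84, inside the 7.37 to 9.43 of the others. The part of other cells in these 4 mice was not tested.

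Cluster 3 fell into 2 bands. Ms4a1 read 6.32 to 6.71 in 5 of its 10 mice and 8.44 to 9.14 in the other 5, a gap of 1.74, so the median of the cluster lies where there was no mouse. Cd79b read 7.91 to 8.41 and 9.65 to 10.19 in the same mice, and Cd79a 6.36 to 6.87 and 8.22 to 9.01. For 8 of the 9 members the widest gap, with at least 3 mice on each side, divided the mice in this same way, and the 5 high mice were all on plate 1. Cr2 was the exception, with 3 mice below its widest gap and 7 above. These bands were seen in the values and are not groups of the study. The share of all probe sets that divide these mice alike was not computed. The bands were not particular to B cell genes. Over the 10 mice these 8 members correlated with the T cell list mean at 0.942 to 0.994 and with the niche list mean at 0.944 to 0.994. With the white adipocyte list mean it was -0.840 to -0.780, and with the macrophage list mean -0.238 to -0.057. With 5 mice in a band, these correlations describe the 2 bands, and none between members is given for cluster 3.

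Cr2 behaved unlike the other members in cluster 1. It ran from 5.90 through a median of 6.58 to 7.76 in 26 mice and from 9.28 through 9.81 to 9.95 in the other 18. No mouse lay between, and the gap of 1.52 was the 4th widest of 28204 probe sets in that cluster, counting gaps with at least 5 mice on each side. Mixtures of normal distributions favoured 2 levels over 1 by 72.9 units of the Bayesian information criterion (BIC) in cluster 1, where 10 was the threshold. In cluster 2, by contrast, Cr2 was spread over 5.10 through 8.29 to 9.96 with an SD of 1.01 (n = 61), its widest gap was 0.27, and 2 levels were not favoured (BIC difference -1.39). Both levels of cluster 1 were found on both plates, with 19 of the 26 low mice and 15 of the 18 high mice on plate 1. The other genes with a single symbol and a gap over 1.4 in cluster 1 were Atp6v1b1 (1.57), Cwc22 (1.52), H2-Ea (1.46) and Pvalb (1.41). These genes were picked for their gaps after the values were seen. The gaps of the other members in cluster 1 were 0.07 (Blk) to 0.56 (Cd79a), and Ms4a1, Cd79a and Fcer2a passed the threshold for 2 levels there (BIC differences of 24.3, 20.8 and 27.6) through the 4 or 5 high mice.

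In cluster 2 Cr2 rose and fell with the other members, and among the low mice of cluster 1 it did so less steadily. Over the 61 mice of cluster 2 its correlation with the 8 other members was 0.708 to 0.809, with a Spearman rho of 0.684 to 0.777 and a permutation p of 1e-05 for each, the smallest that 100000 permutations can give (adjusted p under 0.05 for 8 of 8, over 24 relations). On plate 1 alone these were 0.695 to 0.807, and 0.687 to 0.747 without the 2 mice farthest from the median. Among the 26 low mice of cluster 1 the correlations were 0.441 to 0.809 (rho 0.224 to 0.66), of which 8 of 8 passed by r and 4 by rho. Without the 2 mice farthest from the median they ranged from 0.015 to 0.701, so several rested on those mice. Among the 18 high mice they were 0.11 to 0.444 (rho 0.053 to 0.538), and 0 of 8 passed by r and 1 by rho. Because of the 2 levels no correlation of Cr2 with another member is pooled over all mice.

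**Figure D2:**
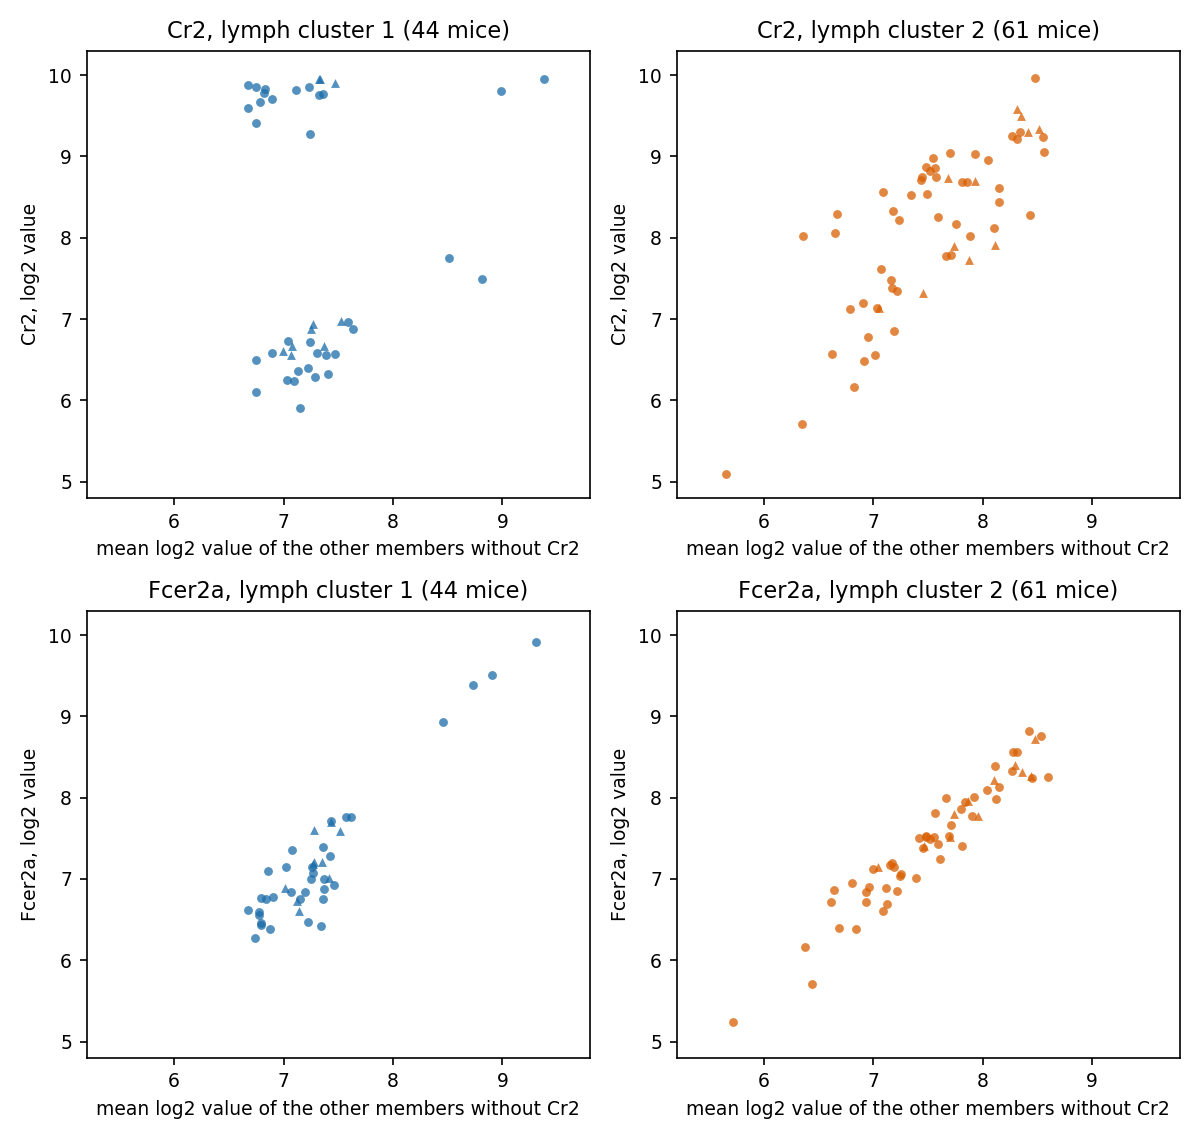
Cr2 (top) and Fcer2a (bottom) against the mean log2 value of the other members without Cr2, in lymph cluster 1 (left) and cluster 2 (right); circles are mice on plate 1 and triangles mice on plate 2. Fcer2a follows the other members in both clusters (r = 0.933 and 0.959), while Cr2 does so in cluster 2 (r = 0.785) and splits into 2 bands in cluster 1.

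The other 8 members varied together from mouse to mouse. Their 28 pairs correlated at 0.781 (Ms4a1 with Cxcr5) to 0.912 (Ms4a1 with Fcer2a), with a median of 0.854, and by rho at 0.756 to 0.886. Each had a permutation p of 1e-05, the smallest possible, and an adjusted p of 1.16e-05 for r over the 36 pairs computed. Without the 2 mice farthest from the median the range was 0.764 to 0.898, on plate 1 it was 0.782 to 0.918 and on plate 2 it was 0.653 to 0.879. Within the clusters the pairs ran from 0.528 to 0.895 in cluster 1 and from 0.837 to 0.965 in cluster 2. The 2 bands of cluster 3 are part of the values over all mice.

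Members were tied to each other more closely in cluster 2 than in cluster 1. Each member was set against the mean of the others, Cr2 always left out of that mean, and the labels of clusters 1 and 2 were permuted over their mice (two-sided, 100000 permutations). The correlation was higher in cluster 2 for 7 of the 9 members at an adjusted p under 0.05 over the 9 comparisons. This permutation takes the labels as unrelated to the values, and the comparison was chosen after the values were seen. How the clusters were made is not said, so these p-values, here and for the slopes below, may not have their usual meaning. Cxcr5, the follicle homing receptor, correlated at 0.731 in cluster 1 and 0.941 in cluster 2 (permutation p = 5e-05). The kinase Blk correlated at 0.766 and 0.929 (p = 0.00119), and Cd22 at 0.814 and 0.942 (p = 0.00244). The signal chains Cd79a and Cd79b did so at 0.803 and 0.951, and at 0.823 and 0.960, and Pax5 at 0.875 and 0.966. Cr2, at 0.071 and 0.785, differed most (p = 4e-05), and its value in cluster 1 is over the 2 bands. Ms4a1 (0.926 and 0.918) and Fcer2a (0.933 and 0.959) did not pass. On plate 1 alone the difference passed for 2 of the 9, Cr2 and Cxcr5, and on plate 2 alone for 8 of the 9, all except Cr2.

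The correlations of cluster 1 rested in part on its 4 high mice. Without them they fell to 0.255 (Cd79a) to 0.713 (Ms4a1) among the 8 members other than Cr2, over a narrower range of levels: the SD of the mean of the 8 members was then 0.27 in cluster 1, against 0.63 in cluster 2. With all mice the SDs were 0.59 and 0.63. The slope of Ms4a1 on the mean of the others was steeper in cluster 1 (1.74 against 1.07, p = 1e-05), as was that of Fcer2a (1.37 against 1.16), while those of Blk (0.47 against 0.75) and Cxcr5 (0.50 against 0.90, p = 3e-05) were shallower. On plate 2 alone the slope of Ms4a1 was 0.33 in cluster 1 and steeper by 1.17 in cluster 2, the other order.

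Correlations within other lists were set beside these. The median correlation of a gene with the mean of the rest of its list was 0.583 in cluster 1 and 0.922 in cluster 2 for the 13 other B cell surface genes, and 0.661 and 0.926 for the 12 genes of B cell receptor signalling. It was 0.779 and 0.937 for the 13 T cell genes, where each of the 13 was higher in cluster 2. It was 0.870 in both clusters for the 15 white adipocyte genes, 0.955 in both for the 6 skeletal muscle genes, and 0.846 and 0.775 for the 12 macrophage genes. The spread of the T cell list mean was also narrower in cluster 1 (SD 0.47 against 0.61). For the 11 luminal epithelium genes it was 0.937 and 0.878, with 1 of 11 higher in cluster 2. Without the 4 high mice the median in cluster 1 was 0.168 for the surface genes, 0.639 for the signalling genes and 0.468 for the T cell genes. These medians are given as a description, without a test.

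**Figure D3:**
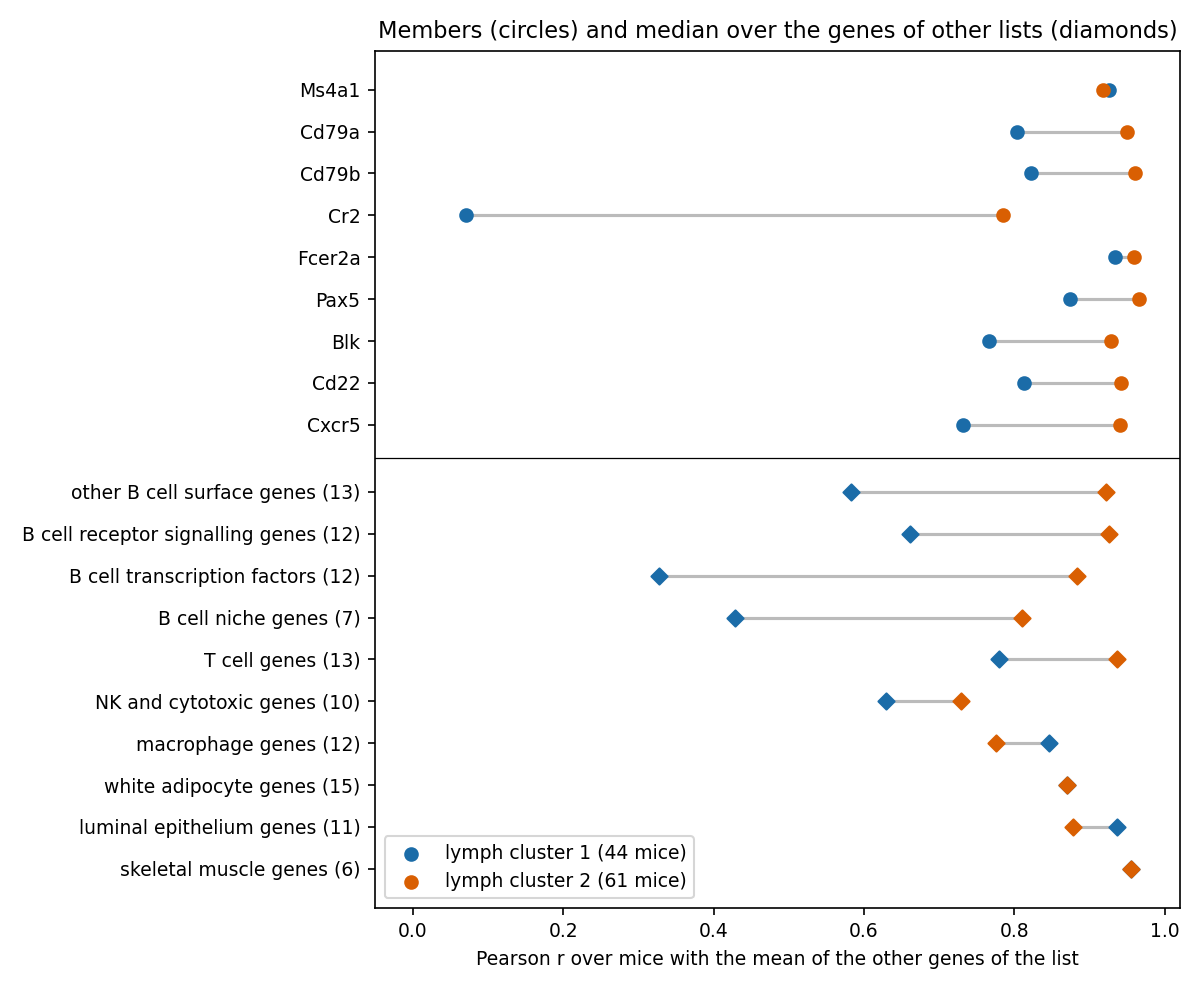
Pearson correlation over mice of each B cell gene with the mean of the other members without Cr2 (circles), and the median correlation of the genes of other lists with the rest of their list (diamonds, number of genes in brackets), in lymph cluster 1 and lymph cluster 2. For the members, Cr2 shows the widest distance (0.071 against 0.785), with its value in cluster 1 taken over its 2 bands. The T cell list shifts from 0.779 to 0.937 while the white adipocyte list stays at 0.870.

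Values corrected for lymph cluster and array plate were used to find the genes whose pattern over the 115 mice was most like each member's. Fcer2a was most like Ms4a1 (r = 0.909) and most like Cd79a (0.893), Ms4a1 most like Cd79b (0.891), and Fcmr, which encodes an Fc receptor for IgM, most like Fcer2a (0.914), Pax5 (0.906) and Cxcr5 (0.876). Fcrl1 was most like Blk (0.891) and Ikzf3, a transcription factor of lymphocytes, most like Cd22 (0.920). The 10 genes outside the list most like the mean of the members were Ikzf3 (0.935), Fcmr (0.922), Fcrl1 (0.912), Slamf6 (0.904), Tnfrsf13c, which encodes the BAFF receptor (0.898), Spib (0.887), Bank1 (0.886), Fcrla (0.881), H2-Eb2 (0.880) and H2-Ob (0.878). For 8 members another member was among the 4 most like genes. For Cr2 the first other member came at rank 244 of 17936 genes. The genes most like Cr2 were Aim2 (0.678), Cd244a (0.627) and Angel2 (0.625), all 3 on chromosome 1 as Cr2 is. These values pool the 2 levels of Cr2 in cluster 1; in cluster 2, where it was continuous, Cr2 correlated with Aim2 at 0.783, with Cd244a at 0.641 and with Angel2 at 0.571.

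What each member varied in beside the others was taken from the residual of a fit on the mean of the other 8 members, cluster and plate. That fit held 0.163 of the variance of Cr2, against 0.731 (Cd79b) to 0.869 (Fcer2a) for the others. The residual of Cr2 had an SD of 1.20, close to the 1.30 of its corrected values. Its 3 strongest relations were with Catspere2 (r = -0.657), Ifi202b (0.646) and Angel2 (0.633), all on chromosome 1, and they too pool the 2 levels. Of the 50 genes most related to the residual, 16 lay within 20 Mb of Cr2, where 0.694% of the 18744 positioned genes lie. The 10 genes nearest to Cr2 had correlations with its residual of -0.224 to 0.284, so the nearest genes were not the most related ones. For the other members 0 to 5 of 50 lay within 20 Mb, among them Il10ra for Cxcr5 (r = 0.447) and Smg9 for Cd22 (r = 0.464). Genotypes were not analysed here. Within the clusters Catspere2 correlated with Cr2 at -0.743 in cluster 1 and -0.697 in cluster 2, Angel2 at 0.694 and 0.571, and Ifi202b at 0.828 and 0.397. By BIC the residual of no member had 2 levels, while that of Cr2 had 2 when the T cell list mean took the place of the member mean (BIC difference 16.2).

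The first comparison of levels was between the lymph clusters. All 9 members had a higher mean in cluster 2 than in cluster 1, from 0.15 (Blk) to 0.36 (Ms4a1), and none passed the test. Ms4a1 ran from 6.62 through a median of 7.43 to 11.01 in cluster 1, from 5.98 through 8.00 to 9.61 in cluster 2 and, in its 2 bands, from 6.32 to 9.14 in cluster 3. Values of the clusters overlapped over most of their range. The difference of means for Ms4a1 was 0.36 (SE 0.17, 95% interval 0.02 to 0.71, limma adjusted p = 1.000). Limma called 0 of 28204 probe sets between these clusters (0% called), and 4 had an unadjusted p under 0.05 (0.0142%), among which Ms4a1 had the smallest p (0.0383). On normal scores of the ranks 0 were called and 12 had such a p. For groups unrelated to the values a share near 0.05 would have such a p. The p-values of this comparison, adjusted or not, therefore do not have their usual meaning. That no member passed says little for the same reason, and the cause was not tested. Without the mouse highest for the members, or without the lowest, 7 of 9 members had an unadjusted p under 0.05 (62 and 54 probe sets did). These mice were picked by the members' own mean, the highest in cluster 1 and the lowest in cluster 2. Leaving out either one therefore widened the difference in these genes by choice, and the 7 lend it no support. On plate 2 alone 8 of 9 members had such a p (2322 probe sets), the lowest being 0.000164 for Cd79b (limma). None was called after adjustment in these settings. For Cxcr5, medians were 6.12 and 6.42 in clusters 1 and 2, and the difference between clusters 2 and 1 was 0.20 (SE 0.11). Cr2, with a median of 8.29 in cluster 2 and 2 levels in cluster 1, differed by 0.24 (SE 0.25, 95% interval -0.27 to 0.74), the widest interval of the 9. With the T cell list mean as a covariate the 9 differences were 0.01 to 0.10. That list mean was itself 7.25 in cluster 1 (SD 0.47) and 7.47 in cluster 2 (SD 0.61), and its part in the members' differences was not tested further. Between cluster 3 and the others no member passed (0% called for both comparisons, and 1 probe set, 0.00355%, at an unadjusted limma p under 0.05 in each), with differences of 0.02 to 0.16 from cluster 1 and -0.23 to -0.08 from cluster 2, as means over its 2 bands.

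The difference between clusters 2 and 1 was larger on plate 2 in all 9 members, by 0.32 (Cxcr5) to 0.76 (Ms4a1), with 0 members past the limma test of that difference (2.52% of probe sets were called). At an unadjusted p under 0.05 it was 1 member, Cd79b, against 13.4% of probe sets. No probe set was called within either plate (0%). On plate 1 (50 against 34 mice) the differences were 0.08 to 0.21 and on plate 2 (11 against 10 mice) 0.43 to 0.97. For Cd79b the estimate was 0.13 with an SE of 0.16 on plate 1, and 0.80 with an SE of 0.18 on plate 2; the difference between plates was 0.67 (SE 0.32, limma adjusted p = 0.326). The 4 high mice of cluster 1 were all on plate 1. Plate 2 minus plate 1 itself was 0.12 (Blk) to 0.34 (Ms4a1), with 0 members called by limma (0.0106% of probe sets called), and 0 at an unadjusted p under 0.05 (2.7% of probe sets).

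**Figure D4:**
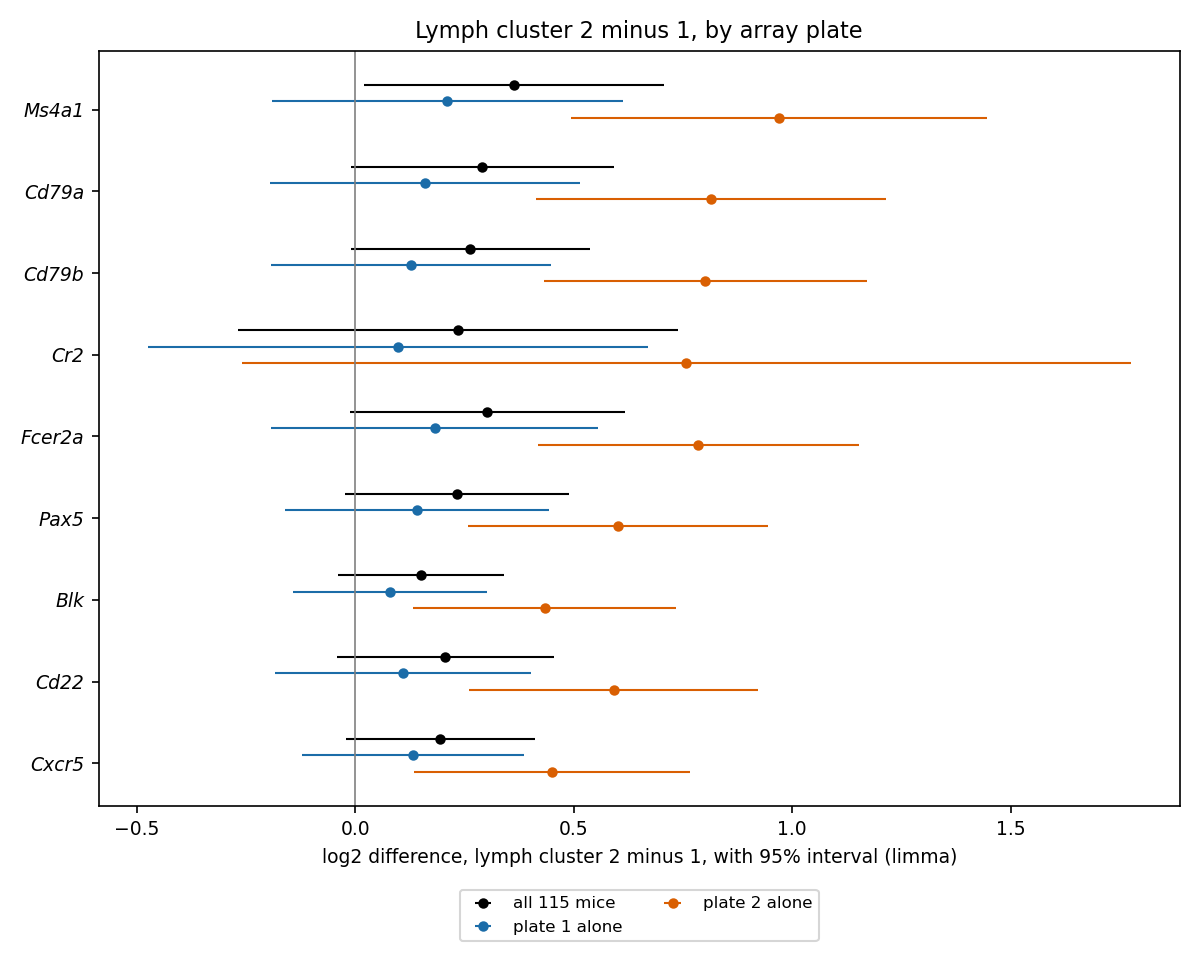
Mean log2 difference between lymph clusters 2 and 1 for each B cell gene (horizontal axis, limma estimate with its 95% interval), over all mice, on plate 1 alone and on plate 2 alone. Estimates over all mice run from 0.15 to 0.36, those of plate 1 from 0.08 to 0.21 and those of plate 2 from 0.43 to 0.97.

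The members were compared with genes of other cells and of the B cell niche in the same mice. The niche list is not of other cells alone, because B cells can make lymphotoxin RNA too. The 8 members other than Cr2 correlated with the T cell list mean at 0.735 to 0.791 (rho 0.719 to 0.775) and with the mean of the niche list, which holds Cxcl13, Ccl19 and lymphotoxin genes, at 0.772 to 0.859 (rho 0.748 to 0.790), all with a permutation p of 1e-05, the smallest possible. On plate 1 alone the ranges were 0.747 to 0.793 and 0.775 to 0.858, and without the 2 farthest mice 0.717 to 0.785 and 0.783 to 0.840. With the plasma cell list mean they correlated at 0.165 to 0.275, of which 4 of 8 passed over the 45 relations computed, and with the macrophage list mean at -0.177 to 0.044, of which 0 passed. B cell genes moved with T cell and niche genes and more weakly with those of antibody-secreting cells. With the white adipocyte list mean they correlated at -0.333 to -0.204, all 8 with an adjusted p under 0.05, and at -0.131 to 0.157 in cluster 1 and -0.443 to -0.278 in cluster 2.

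The title of the series names Hipk2, a nuclear protein kinase, and the members were therefore also set against its level. Hipk2 read from 9.83 through 10.76 to 11.49 over the 115 mice. Of the 9 members, 7 were lower in mice with more Hipk2, with cluster and plate as covariates. The slope, in log2 units per log2 unit of Hipk2, was -0.71 for Ms4a1 (SE 0.23, limma adjusted p = 0.00885), -0.60 for Cd79b (SE 0.18, adjusted p = 0.00522) and -0.58 for Pax5 (SE 0.17, adjusted p = 0.00363). It was -0.58 for Fcer2a, -0.43 for Cd22, -0.41 for Cxcr5 and -0.37 for Blk, all called. Cr2 had a steep slope with a wide error (-0.77, SE 0.34, adjusted p = 0.0651), and Cd79a a shallow one (-0.37, SE 0.20, adjusted p = 0.165), and neither passed. Over all probe sets 35.8% were called, and 17.2% were called lower; at an unadjusted p under 0.05 it was 8 of 9 members and 42.7% of probe sets. The count was 5 of 9 without the mouse highest for the members, where Fcer2a and Cd22 were lost, and 6 without the lowest mouse, where Cd22 was lost (35.1% of probe sets called in each). It was 5 on plate 1 alone (33.9%) and 0 on plate 2 alone (3.26%).

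No member's slope passed once the mean of another cell's genes was in the model. With the T cell list mean as a covariate 0 of 9 members were called (29.6% of probe sets were), and the estimates ran from -0.32 (Cr2) to 0.31 (Cd79a). With the mean of the white adipocyte list there instead 0 of 9 were called (6.99% of probe sets were), from -0.35 (Cd79b) to 0.34 (Cr2). Fat genes had slopes of the opposite sign, with 15 of 15 white adipocyte genes higher. By cluster, 6 of 9 members were called lower in cluster 2 alone (31.3% of probe sets called) and 0 in cluster 1 alone (17.3%). Cxcr5 had a slope of 0.12 (SE 0.19) in cluster 1 and -0.60 (SE 0.20) in cluster 2. The difference between the 2 slopes was -0.72 (SE 0.29, 95% interval -1.29 to -0.15, limma adjusted p = 0.148), and 0 of 9 members passed that limma test (4.62% of probe sets called, 4.17% lower). At an unadjusted p under 0.05 it was 1 member, Cxcr5, against 17.3% of probe sets.

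**Figure D5:**
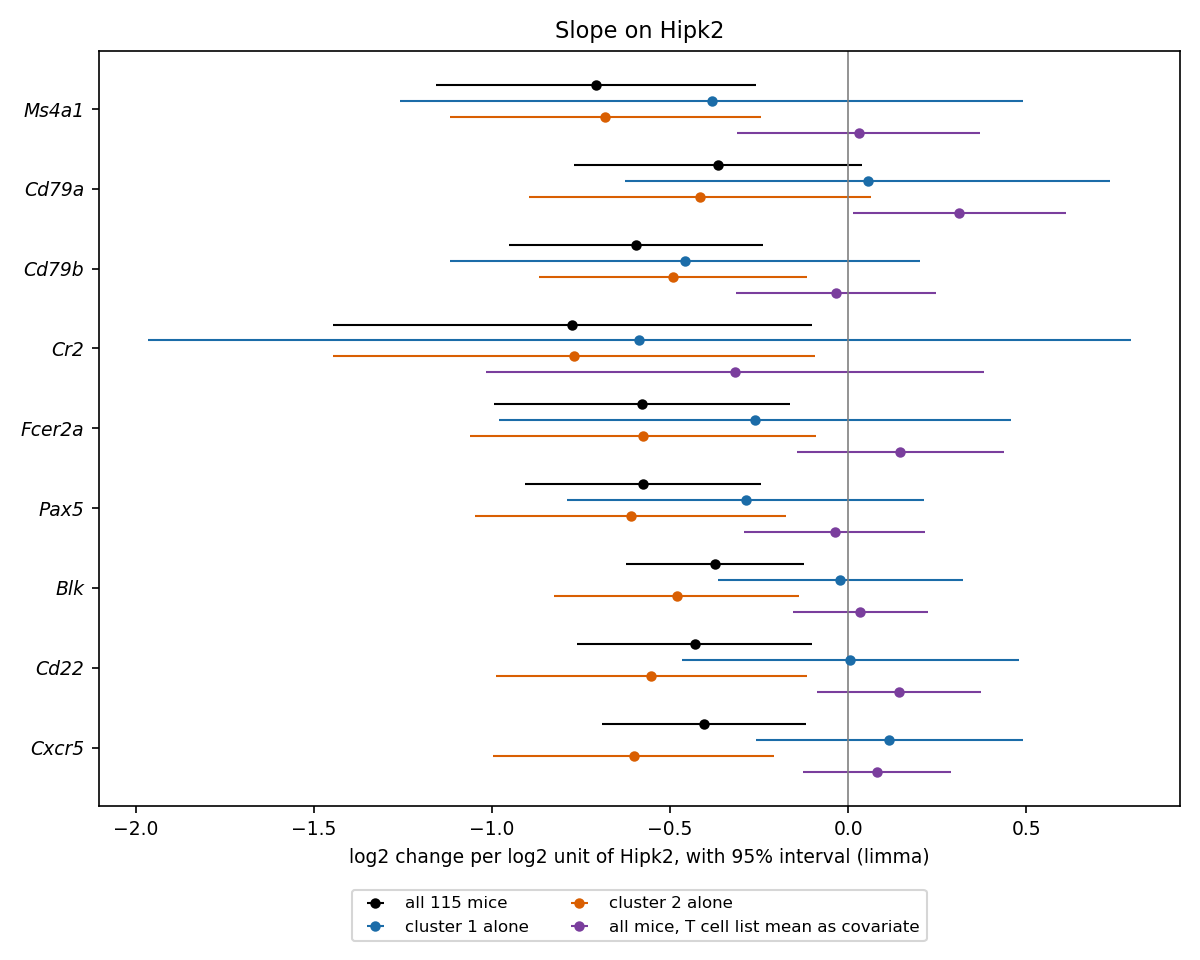
Slope of each B cell gene on Hipk2 in log2 units per log2 unit (limma estimate with 95% interval), over all mice, in lymph cluster 1, in lymph cluster 2, and over all mice with the T cell list mean as a covariate. Over all mice the 9 slopes run from -0.77 to -0.37, and with the T cell covariate from -0.32 to 0.31.

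Other genes of the B cell pathway were taken from lists written with results of these mice known, and their counts stand against the 17.2% of all probe sets called lower and the 35.8% called in either direction. Of 12 measured genes of B cell receptor signalling 9 fell with Hipk2 and 0 rose, with a median slope of -0.41 against -0.01 over all probe sets. Malt1, a protease of the signal relay, had a slope of -0.42 (SE 0.09) and Pik3cd, a lipid kinase subunit, one of -0.50 (SE 0.12). Of 13 other B cell surface genes 7 fell, among them Fcrl1 (-0.55, SE 0.15) and Fcmr (-0.55, SE 0.17). Of 6 inhibitory partners of the receptor 3 fell, with the phosphatase gene Ptpn6 at -0.47 (SE 0.11) and Siglecg at -0.40 (SE 0.13). Siglecg and Cd72 stand both in this list and in that of the surface genes, and fell in each count. Of 12 transcription factors 6 fell and 2 rose. The 2 that rose were Ebf1 (0.64, SE 0.04) and Bcl6 (0.38, SE 0.10), the latter named here after its value was seen. Other cells can carry genes of these lists, those that fell as well as those that rose. Which cells made the RNA was not tested. Bach2 fell (-0.56, SE 0.12).

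Of 5 germinal centre genes 1 fell (Ung, -0.22, SE 0.06), and of 8 plasma cell genes 1 fell (Mzb1, -0.30, SE 0.11) and 1 rose (Tnfrsf17, 0.26, SE 0.08), counts near the share over all probe sets. In the niche list 6 of 7 fell, with lymphotoxin beta (Ltb) at -0.71 (SE 0.14) and Glycam1 at -1.02 (SE 0.26). Which cells of the mammary fat pad made the Glycam1 RNA was not tested. All 13 measured T cell genes fell, with a median of -0.63 and with Cd3g at -1.04 (SE 0.20) and Lat at -0.87 (SE 0.17). Of the other cell lists, 11 of 11 luminal epithelium genes fell, among them Ehf (-1.08, SE 0.26), 6 of 10 NK and cytotoxic genes fell, and 7 of 8 blood endothelium genes rose. Of 8 dendritic cell genes 4 fell, and of 5 basal epithelium genes 1 fell. Of 12 macrophage genes 2 rose and 1 fell, of 5 lymphatic endothelium genes 1 rose and 1 fell, and of 6 skeletal muscle genes 0 were called. The part of these lists in the members' slopes was not tested beyond the 2 covariates above.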

How the data were processed

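The authors deposited 1 table of log2 values for 28204 probe sets and 115 mice. Per the submitters' processing notes, robust multi-array average normalization (RMA) in oligo made it; tool versions: not given in the sources used here. Platform annotation gave 21141 probe sets 1 symbol, and symbols were updated by gene identifier through RefSeq (GRCm38.p6), which matched 21111. The members and lists were chosen with earlier results of these data known.

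Linear models were fitted to all probe sets with limma 3.58.1 (R 4.3.3), and a call was a Benjamini-Hochberg adjusted p under 0.05. One model held cluster and plate, one added Hipk2, and others, on clusters 1 and 2, added an interaction. In simulated data with independent probe sets, the models returned the planted changes on average. Those changes were planted in probe sets less variable than the members, so recovery and error rates for genes like the members were not checked. Correlations over mice had 100000 two-sided permutations. Levels were sought with equal-variance mixtures (mclust 6.1.1). The gaps, the levels of Cr2 and the comparison of correlations between clusters were added after the values were seen. Genes were named by a rule: the members, Hipk2, the 3 genes most like each member and 10 most like their mean, the 3 most related to each residual, the 2 of smallest p per list for the slope, Adipoq and Krt18, of which the text gives a part. Genes with no probe set of 1 symbol were left out. The alternatives changed the plate term, the normalization, the filter on dim probe sets, the weights, the moderation, covariates and the mice used.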

Additional observations from a re-analysis of the deposited data

Results flagged for a closer look

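For 7 members the correlation with the mean of the other members differed between lymph clusters 1 and 2 when the cluster labels were permuted. It was higher in cluster 2 by 0.71 for Cr2, 0.21 for Cxcr5, 0.16 for Blk, 0.15 for Cd79a, 0.14 for Cd79b, 0.13 for Cd22 and 0.09 for Pax5. The value of Cr2 in cluster 1 is taken over its 2 bands, so its difference is not one of correlation within a band. Without the highest mouse for the members, which is in cluster 1, and the lowest, in cluster 2, the same test passed for 7 members again. On plate 1 alone it passed only for Cr2 and Cxcr5, and on plate 2 alone for all members except Cr2. The correlations of cluster 1 rested in part on its 4 high mice. Without them the mean of the members other than Cr2 had an SD of 0.27 there, against 0.63 in cluster 2. The limit on these p-values that was given with the result above holds here too. In cluster 3, the one group of 10 mice, no member had a single mouse flagged as far from the others. That check sets the gap at either end against the whole range. For 8 of the 9 members the range spans the 2 bands, so the check could hardly flag a mouse there.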

How the results depend on the processing

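No paired analysis was possible because replicates were numbered in accession order and each mouse belongs to 1 cluster. Each member had 1 probe set, so no other probe set of a member could be tried. Of 585 values of single members under the alternatives, 524 kept their direction and side of the threshold and 29 changed sign, while 38 calls were lost, 9 of them with a change of sign, and 3 were gained. The count of members called on Hipk2, 7, was 0 on plate 2 alone, 4 with quantile normalization repeated, and 0 with the white adipocyte mean, with the T cell mean, or in cluster 1 alone. The slope turned to 0.02, 0.34, 0.04 and 0.18 for Cd79a, Cr2, Fcer2a and Cd22 with the white adipocyte mean, to 0.03, 0.31, 0.15, 0.03, 0.14 and 0.08 for Ms4a1, Cd79a, Fcer2a, Blk, Cd22 and Cxcr5 with the T cell mean, and to 0.05, 0.006 and 0.12 for Cd79a, Cd22 and Cxcr5 in cluster 1 alone. Of the called probe sets 5226 were higher and 4857 lower on Hipk2, against 6697 and 3704 with arrays centred on their medians, and the median of all probe sets moved from -0.01 to 0.04. Slope differences between clusters, none called, turned to 0.08 and 0.29 for Cd79b and Cr2 on plate 1, 0.08 and 0.09 with quantile normalization repeated, 0.03 for Cr2 with centred arrays, 0.35 for Cr2 with array weights and 0.03 for Cd79b without the lowest mouse, and 127 higher and 1175 lower probe sets were called, against 52 and 480 with quantile normalization repeated and 0 and 156 on plate 1. Plate 2 against 1 had 3 called probe sets, and 17 higher and 10 lower with quantile normalization repeated. Cluster 3 minus 1 turned to -6e-05 for Cxcr5 with plate as a random block and -0.03 for Cr2 on plate 1. Cluster 3 minus 2 turned to 0.03 (Blk) and 0.01 (Cd22) on plate 1, and with array weights to 0.003 (Ms4a1), 0.008 (Cd79b), 0.006 (Fcer2a), 0.004 (Blk) and 0.02 (Cd22). Members whose correlations differed between clusters numbered 7, and 2 on plate 1 alone. Residuals with 2 levels numbered 0, and 1 when the fit used the T cell mean. By rho 20 of 27 most like genes were shared. The causes of these changes were not tested. Cluster 3 holds 10 mice and plate 2 holds 22, which limits what both can show.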
